A study of Mus musculus with 8 samples.

Results

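The glutathione, thioredoxin and metallothionein defence genes are the enzymes, carrier proteins and metal-binding proteins that mouse cells use against peroxides, superoxide, reactive electrophiles and free metal ions. They were chosen by gene symbol, with earlier results of these data known. The symbols were those of glutathione S-transferases (Gsta, Gstk, Gstm, Gsto, Gstp, Gstt, Gstz, Mgst), Gpx, Prdx, Txn, Glrx and Sod genes, with Cat, Gclc, Gclm, Gss, Gsr, Nqo1, Hmox1, Hmox2, Srxn1, Nfe2l2, Keap1, Mt1, Mt2 and Mtf1. Symbols of pseudogenes were left out. The rule gave 79 of the 38924 genes in the table, and 62 of the 79 had a level of at least 1 in at least 2 libraries and were tested. Transcripts were measured by RNA sequencing in 3 libraries of diapaused inner cell mass (ICM), 2 of post-implantation epiblast and 3 of ICM from day 3.5 blastocysts. The ICM gives rise to epiblast and primitive endoderm. In diapause the unimplanted blastocyst stops developing and can later resume. The diapaused embryos came from females given tamoxifen and 0.5 mg of Depo Provera, a progestogen, on day 3.5, and were collected 5 days later. The epiblast came from embryos at day 6.5 and the ICM from blastocysts at day 3.5, both without that treatment. The females that gave either kind of blastocyst had been superovulated. All 8 libraries carry the labels C57BL/6 and female (without saying whether of embryos or of mothers), and each was made from a pool of about 50 embryos with amplified RNA. Trophectoderm was removed by antibody and complement, a step the labels describe for blastocysts and not for epiblast. Arrest, embryo age and hormone treatment cannot be told apart in the diapaused group. Where epiblast is compared with either kind of blastocyst, stage cannot be told apart from superovulation and removal of trophectoderm.

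Glutathione is a tripeptide made from glutamate, cysteine and glycine by glutamate-cysteine ligase and then glutathione synthetase. Peroxidases use it to reduce peroxides, transferases attach it to electrophiles, glutaredoxins use it to reduce disulphides, and glutathione reductase regenerates it with NADPH. Thioredoxin and its reductase form a parallel system that supplies electrons to peroxiredoxins. The factor Nrf2, held in check by Keap1, induces many of these genes under oxidative stress. Metallothioneins are small cysteine-rich proteins that bind zinc and copper and are induced by metals and glucocorticoids.

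Levels are the authors' adjusted TPM, a transcript abundance per transcript length, and the read depth behind them is unknown. Per-library values are listed in replicate order. Fold changes are on the scale log2(level + 1), given ± SE from a limma fit to all 8 libraries, with p-values adjusted over the 17698 genes tested. That scale understates changes of genes at low levels. Between 14634 and 15130 genes reached 1 per library, as did 47 to 55 of the 79 defence genes. The labels were compared with cell type markers. Summed over 11 pluripotency markers the level was 445 to 540.1 in diapaused ICM, 535 to 880.3 in epiblast and 555 to 891 in ICM. Of these 11 genes, in diapaused ICM 0 were called higher and 2 lower than in ICM, and in epiblast 3 higher and 7 lower. Summed over 13 primitive endoderm markers the level was 1841 to 2180 in diapaused ICM, 69.4 to 72.6 in epiblast and 600.0 to 748 in ICM. Of these 13 genes, in diapaused ICM 9 were called higher and 1 lower than in ICM, and in epiblast 0 higher and 9 lower. Summed over 12 trophectoderm markers it was 589 to 780.1 in diapaused ICM, 68.1 to 82.8 in epiblast and 63.0 to 128 in ICM. Of these 12 genes 8 were tested, and in diapaused ICM 2 were called higher and 0 lower than in ICM. In epiblast 1 was called higher and 1 lower than in ICM. Most of the diapaused sum was Fabp3, at 544 to 664, while Cdx2, which defines trophectoderm, was at 0.0995 to 0.901 in diapaused ICM. Summed over 12 visceral endoderm markers it was 62.6 to 73.4 in diapaused ICM, 34.2 to 77.8 in epiblast and 16.9 to 33.2 in ICM, and over 10 uterine markers 9.84 to 17.8, 8.30 to 9.91 and 15.9 to 27.8 in the same order. Summed over 11 blood and immune markers it was 47.9 to 135 in diapaused ICM, 2.46 to 4.48 in epiblast and 5.05 to 10.6 in ICM. Laptm5 and Cd68 reached 53.2 and 80.6 in diapaused ICM, and Lyz2, C1qa and C1qb were at or near 0 in every library. The part of these cell types in any result below was not tested, and fewer cells of a type and less RNA per cell cannot be told apart in pooled tissue.

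The defence genes did not move as a block in any comparison. In diapaused ICM against ICM, 4 of the 62 tested were higher and 7 lower, 17.7% in all. The share among all genes tested was 13.3%, with 7.52% higher and 5.81% lower. The libraries of these groups did not overlap for 27 of the 62, or 43.5%, against 30.7% of all genes. In epiblast against ICM, 14 were higher and 12 lower, 41.9% of the 62 against 30.1% of all genes (16.7% higher, 13.3% lower), and the groups did not overlap for 40 genes, 64.5% against 59% of all genes. In diapaused ICM against epiblast, 9 were higher and 9 lower, 29% against 34.5% (16% higher, 18.6% lower), and the groups did not overlap for 31 genes, 50% against 61.4%. These 3 comparisons share libraries and are not independent. The shares of all genes given here are the background for the counts by role below. The median fold change of the tested defence genes was 0.13 in diapaused ICM against ICM, 0.28 in epiblast against ICM and 0.13 in diapaused ICM against epiblast, and that of all genes was 0.0044, 0.14 and -0.11 in the same order. The upward calls of defence genes in epiblast against ICM numbered 7 and 9 without ICM replicates 1 and 2, and 7 with no filter on low values, in place of 14. Among all genes those fits gave 1985, 2358 and 2433 upward calls in place of 2963. Without either epiblast library the upward calls were also fewer, among the defence genes and among all genes. Those fits leave 1 library in that group. After rescaling to less abundant genes the median of all genes in that comparison was -0.0010, all genes were split 1983 higher to 2722 lower in place of 2963 to 2361, and the defence genes 10 to 13. The same rescaling gave 11 higher and 8 lower defence genes in diapaused ICM against epiblast, with all genes at 3117 to 2292 in place of 2830 to 3283. Without epiblast replicate 1 that comparison had fewer calls in both directions, among the defence genes and among all genes. The genes not tested numbered 17. The highest of them was Txnrd2, for mitochondrial thioredoxin reductase, at 0.674, 3.54 and 0.0261 in diapaused ICM, 0.239 and 0.322 in epiblast, and 0.347, 0.0960 and 0.160 in ICM, and the others did not exceed 1.16 in any library.

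**Figure D1:**
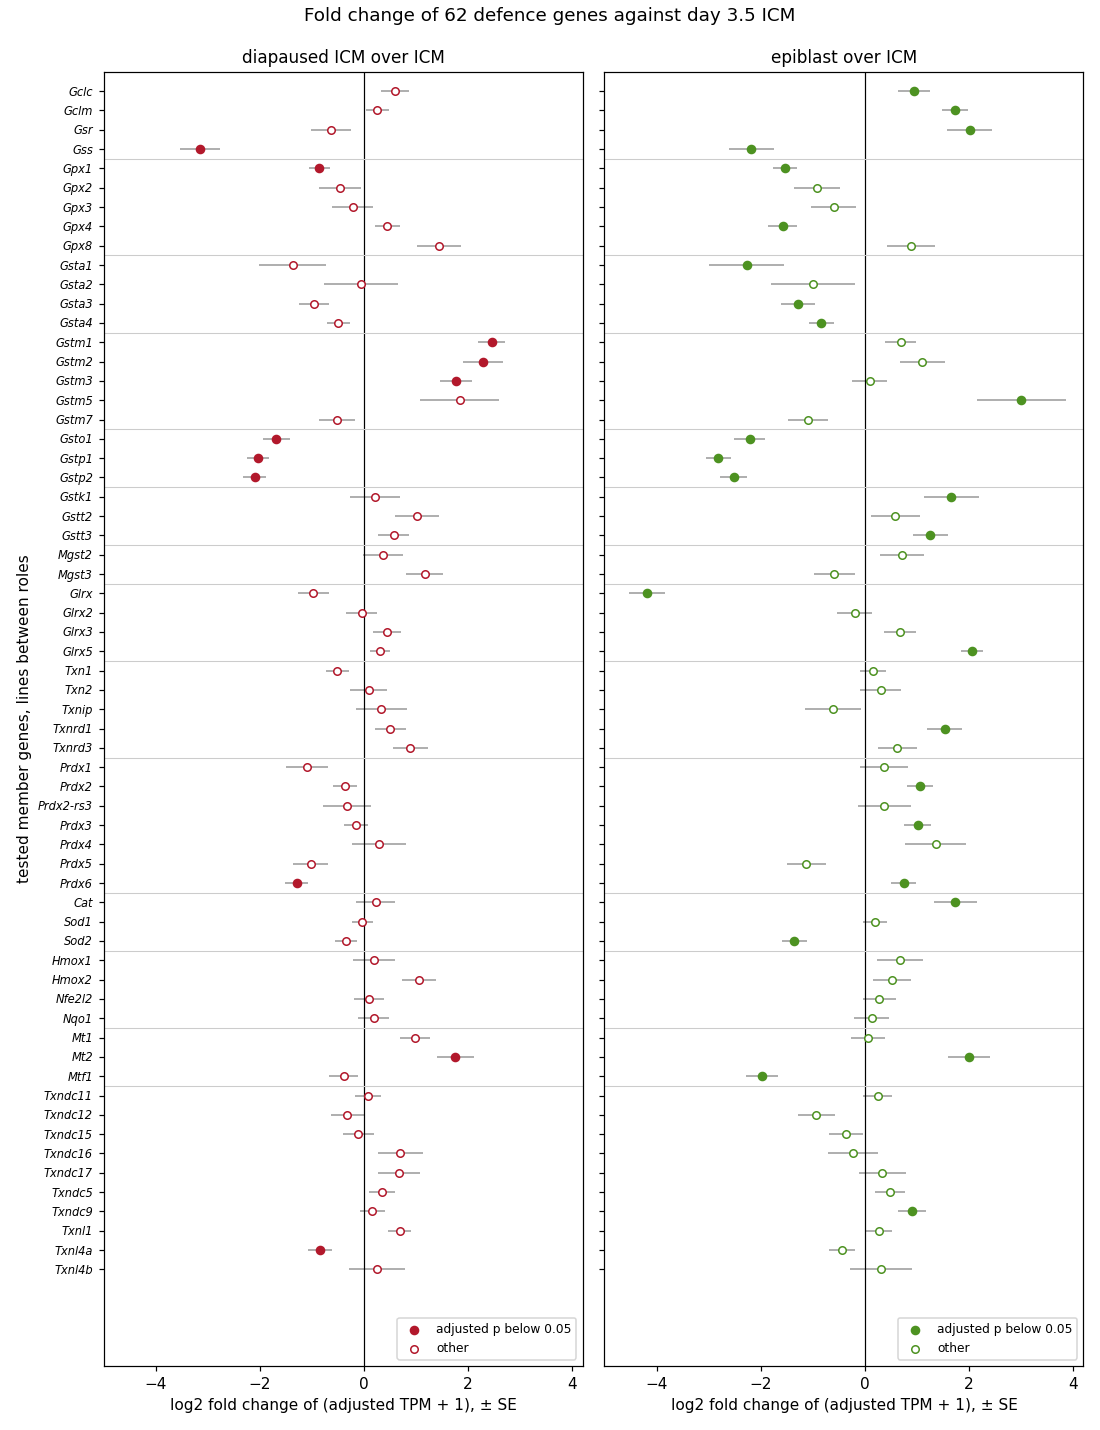
Log2 fold change of (adjusted TPM + 1) ± SE for the 62 tested genes, grouped by role down the page, in diapaused ICM over ICM (left, red) and epiblast over ICM (right, green); filled points have an adjusted p below 0.05. The pi and omega transferases lie left of 0 in both panels, the mu transferases Gstm1, Gstm2 and Gstm3 are called to the right in the left panel only, and Gss is the lowest point on the left at -3.15.

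The genes of glutathione synthesis split. Gss, for glutathione synthetase, the second enzyme of the pathway, was lower in diapaused ICM and in epiblast than in ICM. Its level was 0.150, 0.332 and 1.88 in diapaused ICM, 3.40 and 1.36 in epiblast, and 10.8, 14.4 and 16.05 in ICM. No diapaused or epiblast library reached the lowest ICM library, and diapaused replicate 3 stood above the other two of its group. By the ratio of means Gss was 17.4-fold lower in diapaused ICM than in ICM (log2 fold change -3.15 ± 0.38, adjusted p = 0.0011) and 5.77-fold lower in epiblast than in ICM (-2.18 ± 0.43, adjusted p = 0.0061, and 0.068 without epiblast replicate 2). Diapaused ICM against epiblast gave -0.97 ± 0.43, adjusted p = 0.11, and 0.023 without diapaused ICM replicate 3. Gclm, for the modifier subunit of glutamate-cysteine ligase, the first and rate-limiting enzyme, was at 3.39, 4.13 and 3.87 in diapaused ICM, 10.7 and 14.00 in epiblast, and 2.64, 4.13 and 2.43 in ICM. Both epiblast libraries lay above all 6 blastocyst libraries (log2 fold change 1.73 ± 0.25, adjusted p = 0.0014), while diapaused ICM and ICM overlapped (0.26 ± 0.22, adjusted p = 0.52). Gclc, for the catalytic subunit of that enzyme, had 8.62, 3.86 and 4.75 in diapaused ICM, 7.76 and 6.63 in epiblast, and 2.87, 4.07 and 2.98 in ICM. The epiblast libraries lay above ICM, and diapaused replicate 1 above all others. The epiblast call (log2 fold change 0.94 ± 0.31, adjusted p = 0.0483) was lost without any ICM library, either epiblast library or diapaused replicate 3 (adjusted p 0.053 to 0.23), and with a pseudocount of 0.1, no filter on low values, rescaling or no trend (0.051 to 0.13). Gsr, for glutathione reductase, was at 5.20, 3.94 and 8.18 in diapaused ICM, 63.9 and 24.7 in epiblast, and 8.68, 7.05 and 12.2 in ICM. It was higher in epiblast than in ICM (log2 fold change 2.02 ± 0.43, adjusted p = 0.0089, and 0.089 without epiblast replicate 1), with the epiblast libraries far apart, and overlapped between diapaused ICM and ICM. In diapaused ICM against epiblast it was lower (-2.64 ± 0.43, adjusted p = 0.0022), as was Gclm (-1.47 ± 0.25, adjusted p = 0.0027).

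Of 8 glutathione peroxidase genes 5 were tested, and Gpx1 and Gpx4 were the only ones above 10 in any group. The proteins of Gpx1, Gpx2, Gpx3, Gpx4 and the thioredoxin reductase genes carry selenocysteine, which is encoded by a UGA codon that otherwise ends translation. The annotation places 1 such codon in 7 of the 79 genes, and its coding context is shown because it is the feature that joins these peroxidases and reductases. Each line is read from the GENCODE M21 transcript (GRCm38), written as DNA with 12 bases on either side and the selenocysteine codon in capitals.
Gpx1: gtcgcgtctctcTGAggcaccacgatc
Gpx2: gtggcgtcactcTGAggaacaactacc
Gpx3: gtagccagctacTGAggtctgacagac
Gpx4: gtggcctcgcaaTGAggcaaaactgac
Txnrd1: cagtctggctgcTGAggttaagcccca
Txnrd2: gtgactggttgcTGAggctaagtcacc
Txnrd3: cagaaaggctgcTGAggctagccctgc
In the 3 reductase genes a single codon stands between the capitals and the stop codon, while in the peroxidase genes the reading frame runs on past the bases shown. The levels of the genes with this codon did not move together.

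Gpx1, the abundant cytosolic peroxidase that reduces hydrogen peroxide, was at 101, 107 and 112 in diapaused ICM, 57.03 and 78.2 in epiblast, and 189, 208 and 186 in ICM. The 3 groups did not overlap, with ICM highest and epiblast lowest. It was lower in diapaused ICM than in ICM (log2 fold change -0.86 ± 0.20, adjusted p = 0.025) and lower in epiblast than in ICM (-1.53 ± 0.23, adjusted p = 0.0017). The first call was lost without any 1 of the 6 blastocyst libraries (adjusted p 0.051 to 0.075). Gpx1 was also called higher in diapaused ICM than in epiblast (0.67 ± 0.23, adjusted p = 0.0497), a call at the threshold that was lost without any diapaused library, ICM replicate 1 or 3, or epiblast replicate 1 (0.065 to 0.25), with only the 2 groups in the fit (0.0698) and with no trend (0.052). Gpx4 reduces lipid hydroperoxides within membranes and restrains ferroptosis. It had 86.4, 51.99 and 56.3 in diapaused ICM, 15.6 and 13.9 in epiblast, and 41.4, 43.96 and 53.4 in ICM. Epiblast was below every blastocyst library, 3.13-fold lower than ICM by the ratio of means (log2 fold change -1.58 ± 0.28, adjusted p = 0.0037), and diapaused ICM was 4.39-fold higher than epiblast (2.03 ± 0.28, adjusted p = 0.0009). Diapaused ICM against ICM gave 0.45 ± 0.25, adjusted p = 0.28. Of the 36-base stretches of Gpx4 transcripts, 37.6% also occur in a transcript of another gene, chiefly the pseudogene Gpx4-ps2, so some of its reads may belong elsewhere. Gpx2, Gpx3 and Gpx8 stayed at or below 5.03 in every library and were called in no comparison.

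Glrx had the lowest fold change of all 62 tested genes in epiblast against ICM. It encodes glutaredoxin 1, which removes glutathione from protein thiols in the cytosol. Its level was 119, 70.4 and 82.1 in diapaused ICM, 9.46 and 7.84 in epiblast, and 167, 249 and 127 in ICM. All 6 blastocyst libraries lay above both epiblast libraries, by 10.5-fold in diapaused ICM and 20.9-fold in ICM as ratios of means. The comparisons gave log2 fold change -4.19 ± 0.34, adjusted p = 6.4e-05 for epiblast against ICM and 3.21 ± 0.34, adjusted p = 0.00027 for diapaused ICM against epiblast. Diapaused ICM was also below all ICM libraries, without a call (-0.97 ± 0.30, adjusted p = 0.07). Glrx5, a mitochondrial glutaredoxin of iron-sulphur cluster assembly, went the other way. It had 3.24, 3.33 and 3.52 in diapaused ICM, 16.2 and 11.6 in epiblast, and 2.57, 2.37 and 2.66 in ICM. Epiblast was above every blastocyst library (log2 fold change 2.06 ± 0.22, adjusted p = 0.00026 against ICM), and diapaused ICM was lower than epiblast (-1.75 ± 0.22, adjusted p = 0.00054). Glrx2, for another mitochondrial glutaredoxin, and Glrx3, for a cytosolic iron-handling one, ranged from 25.1 to 75.3 over all libraries and were not called.

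**Figure D2:**
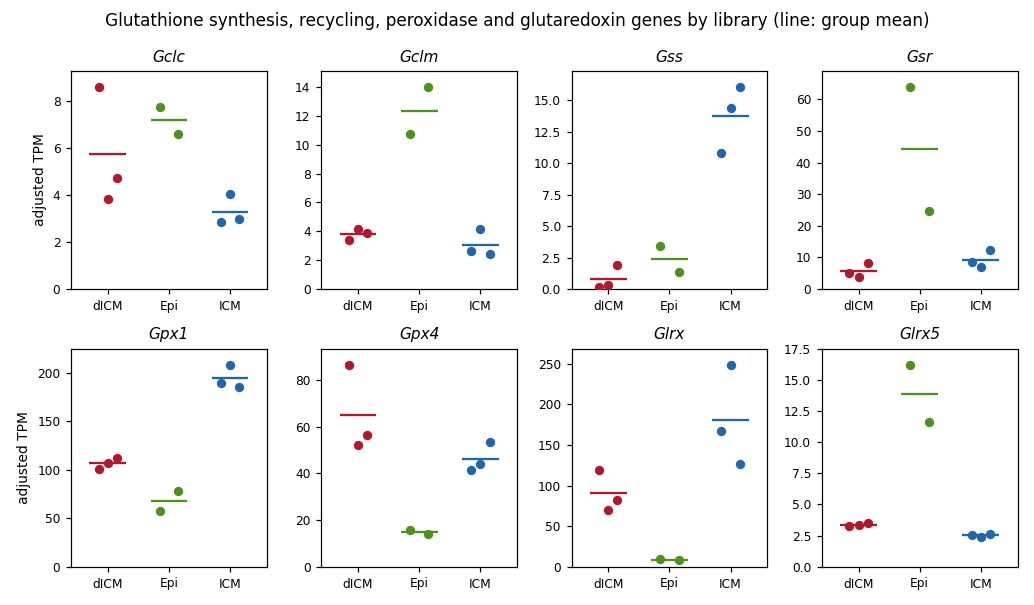
Adjusted TPM (axis from 0) of 8 genes of glutathione synthesis, recycling and use in each library of diapaused ICM (dICM), epiblast (Epi) and ICM; points are libraries and lines are group means. Gss and Gpx1 are highest in ICM, Gclm, Gsr and Glrx5 are highest in epiblast, and Gpx4 and Glrx are lowest in epiblast, at 13.9 to 15.6 and 7.84 to 9.46.

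All 3 tested pi and omega transferases fell in diapaused ICM and in epiblast, relative to ICM. Gstp1 and Gstp2 encode pi-class enzymes that conjugate glutathione to electrophiles and lie side by side on chromosome 19. Their promoters are shown because the pair moved together. Each line gives the 250 bases before the start of the gene, from RefSeq on GRCm38.p6, minus strand, 5′ to 3′, with the longest run common to both, 43 bases, in capitals.
Gstp1: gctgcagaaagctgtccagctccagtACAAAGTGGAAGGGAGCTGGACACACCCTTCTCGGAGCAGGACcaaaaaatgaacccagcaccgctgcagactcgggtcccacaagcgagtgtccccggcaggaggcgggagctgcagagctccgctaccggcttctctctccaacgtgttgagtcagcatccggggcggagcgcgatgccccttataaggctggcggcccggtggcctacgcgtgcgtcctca
Gstp2: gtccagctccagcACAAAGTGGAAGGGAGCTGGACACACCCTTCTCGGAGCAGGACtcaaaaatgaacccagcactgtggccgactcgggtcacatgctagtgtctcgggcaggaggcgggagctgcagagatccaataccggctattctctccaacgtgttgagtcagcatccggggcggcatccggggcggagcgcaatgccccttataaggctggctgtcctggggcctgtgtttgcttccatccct
The Gstp1 window is chr19:4037913-4038162 and the Gstp2 window chr19:4042222-4042471. In a global alignment 208 bases were identical, 83.2% of the window. Both also hold TGAGTCA, the sequence of a site for AP-1 factors, starting 74 bases before the start of Gstp1 and 89 before that of Gstp2. This motif was picked after the sequences were seen, was searched on both strands, and occurs in 4.46% of 32817 windows of the same length.

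Gstp1 was at 16.4, 13.3 and 18.01 in diapaused ICM, 9.26 and 8.43 in epiblast, and 59.7, 73.3 and 71.8 in ICM. Gstp2 was at 8.40, 10.3 and 12.3 in diapaused ICM, 8.48 and 6.46 in epiblast, and 39.8, 52.4 and 50.2 in ICM. In both genes all ICM libraries lay above all others, and by the ratio of means Gstp1 was 4.29-fold and Gstp2 4.59-fold lower in diapaused ICM than in ICM. Against ICM, Gstp1 gave log2 fold change -2.04 ± 0.21, adjusted p = 0.00047 in diapaused ICM and -2.81 ± 0.23, adjusted p = 6.9e-05 in epiblast. Gstp2 gave -2.10 ± 0.23, adjusted p = 0.00066 in diapaused ICM and -2.52 ± 0.26, adjusted p = 0.00022 in epiblast. These calls held in every fit that left out a library and under every alternative setting tried. The call of Gstp1 as higher in diapaused ICM than in epiblast (0.77 ± 0.23, adjusted p = 0.031) was lost without diapaused replicate 1 or 3 or either epiblast library (0.069 to 0.13) and with quantile normalization (0.0639). Of the 36-base stretches of Gstp1 transcripts, 37.2% occur in Gstp2, and 53% of those of Gstp2 occur in Gstp1, so the split of reads between them is uncertain. Their sum was 24.8, 23.7 and 30.4 in diapaused ICM, 17.7 and 14.9 in epiblast, and 99.5, 126 and 122 in ICM. Levels are per transcript length, so this sum can also shift with that split. Gsto1, an omega-class transferase that reduces dehydroascorbate and mixed disulphides, had 18.7, 17.2 and 21.7 in diapaused ICM, 14.9 and 11.2 in epiblast, and 90.9, 56.5 and 49.7 in ICM. It too was lower in diapaused embryos (log2 fold change -1.68 ± 0.27, adjusted p = 0.0044) and in epiblast (-2.21 ± 0.30, adjusted p = 0.001) than in ICM, without overlap. Its neighbour Gsto2 did not exceed 0.0678 in any library.

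Against ICM, diapaused ICM had 3 of 5 tested mu transferases higher and 0 lower, beside 7.52% and 5.81% of all genes tested. The 7 mu genes, which encode cytosolic conjugating enzymes, lie in a row in the RefSeq order of protein-coding genes. Gstm1 was at 50.7, 32.7 and 44.00 in diapaused ICM, 11.5 and 11.8 in epiblast, and 5.56, 5.87 and 9.64 in ICM. All diapaused libraries lay above all others, by 6.04-fold over ICM and 3.66-fold over epiblast as ratios of means. Gstm1 gave log2 fold change 2.45 ± 0.26, adjusted p = 0.00061 against ICM and 1.76 ± 0.29, adjusted p = 0.0024 against epiblast, and both calls held in every fit run. Epiblast against ICM was called with quantile normalization alone (0.0489, and 0.107 as fitted here). Gstm2 and Gstm3 were called at lower levels and are named after their values were seen. Gstm2 had 11.7, 4.78 and 8.33 in diapaused ICM, 1.54 and 4.87 in epiblast, and 0.469, 0.785 and 1.21 in ICM. All diapaused libraries lay above ICM (log2 fold change 2.29 ± 0.38, adjusted p = 0.0053) and overlapped with epiblast, against which the call was missed (adjusted p = 0.058) and was gained without diapaused replicate 2 (0.031) or epiblast replicate 2 (0.038), with quantile normalization (0.0478) and with rescaling (0.0493). Gstm3 had 8.78, 6.49 and 5.15 in diapaused ICM, 0.662 and 2.44 in epiblast, and 1.19, 0.986 and 1.60 in ICM. In diapaused ICM it was higher than in ICM (log2 fold change 1.77 ± 0.31, adjusted p = 0.0064) and higher than in epiblast (1.68 ± 0.34, adjusted p = 0.0064, and 0.064 without epiblast replicate 1). Gstm5, likewise picked after its values were seen, was uneven, at 15.1, 0.155 and 3.86 in diapaused ICM, 8.46 and 9.71 in epiblast, and 0.456, 0.193 and 0.127 in ICM. Diapaused replicate 2 was at the level of ICM, and Gstm5 was called only in epiblast against ICM (log2 fold change 3.01 ± 0.85, adjusted p = 0.028), a call lost without any ICM or epiblast library (0.056 to 0.14) and with no filter on low values (0.137). In diapaused ICM against ICM it gave 1.84 ± 0.76, adjusted p = 0.15, and 0.0089 without diapaused replicate 2. Without diapaused replicate 1 it was called lower than in epiblast (-2.09, adjusted p = 0.029). Of the 36-base stretches of transcripts, 25.7% of those of Gstm1, 9.6% of Gstm2 and 35.3% of Gstm3 also occur in other genes. The pseudogene Gm6665, which shares 4.6% of the stretches of Gstm2, ranged from 0.147 to 41.7 in diapaused ICM, 0.167 to 0.176 in epiblast and 0.0662 to 0.464 in ICM. Primitive endoderm markers were summed at 1841 to 2180 in the diapaused libraries and 600.0 to 748 in ICM, and their part in the mu-class levels was not tested. Gstm7 did not exceed 1.57 and was not called.

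Of 4 alpha transferase genes, all tested, 3 were lower in epiblast than in ICM. Gsta4, whose enzyme detoxifies the lipid peroxidation product 4-hydroxynonenal, had the highest mean of the transferase genes in all 3 groups. In ICM its mean was close to that of Gstp1 (70.5 and 68.3). Gsta4 was at 60.97, 40.4 and 50.2 in diapaused ICM, 37.00 and 41.03 in epiblast, and 66.1, 70.3 and 75.1 in ICM. The 3 groups overlapped only between diapaused ICM and epiblast, and the call in epiblast against ICM (log2 fold change -0.84 ± 0.24, adjusted p = 0.031) was lost without any ICM or epiblast library (0.051 to 0.15). Gsta1 and Gsta3, below 10 in every group mean and picked after their values were seen, were also called lower in epiblast than in ICM. Gsta1 averaged 0.166 ± 0.0755 in epiblast and 6.45 ± 5.66 in ICM (-2.27 ± 0.72, adjusted p = 0.042). Gsta3 averaged 0.765 ± 0.371 in epiblast and 3.37 ± 1.28 in ICM (SD, n = 2 and 3; -1.28 ± 0.33, adjusted p = 0.019). The Gsta1 call was lost without ICM replicate 1 or 3, diapaused replicate 2 or 3, or either epiblast library (0.052 to 0.19), and the Gsta3 call without ICM replicate 1 or either epiblast library (0.054 to 0.14). With no filter on low values both were lost (0.178 and 0.0749), as was the Gsta1 call with only the 2 groups in the fit (0.073). Of the stretches of Gsta1, 92.3% occur in other genes, so its reads cannot be assigned with confidence. Without ICM replicate 2 Gsta1 and Gsta3 were also called lower in diapaused ICM than in ICM (0.014 and 0.049), Gsta3 also with quantile normalization (0.0427). Theta, kappa and zeta genes did not exceed 4.89 in any library. Gstk1 and Gstt3, also picked after their values were seen, were called higher in epiblast than in ICM at 3.36 ± 2.16 and 1.54 ± 0.148, against 0.333 ± 0.444 and 0.0628 ± 0.00995 in ICM (SD, n = 2 and 3). The Gstk1 call was lost without any ICM or epiblast library (0.0502 to 0.29), and with a pseudocount of 0.1, no filter, quantile normalization or rescaling (0.0536 to 0.166). Against epiblast, diapaused ICM was called lower for Gstk1 without diapaused replicate 3 (0.017). The Gstt3 call was lost without ICM replicate 1 or either epiblast library (0.052 to 0.087). Of the membrane-bound transferases, Mgst3, picked after its values were seen, was higher in diapaused ICM (2.75 ± 0.915) than in epiblast (0.0932 ± 0.00684), with log2 fold change 1.75 ± 0.40, adjusted p = 0.01, a call lost without either epiblast library (0.067 and 0.059) and with no filter (0.0514). Against ICM it was called higher in diapaused ICM without ICM replicate 3 (0.027, and 0.063 with all libraries). Mgst1 did not exceed 0.411 in any library.

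**Figure D3:**
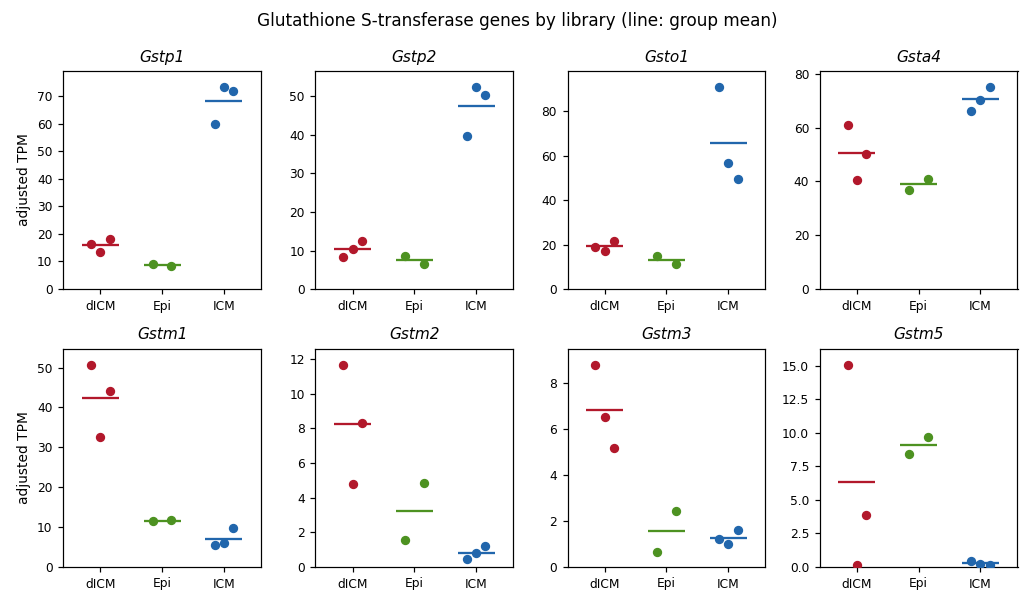
Adjusted TPM (axis from 0) of 8 glutathione S-transferase genes in each library of diapaused ICM (dICM), epiblast (Epi) and ICM; points are libraries and lines are group means. Gstp1, Gstp2 and Gsto1 are highest in all ICM libraries, Gstm1, Gstm2 and Gstm3 have their highest means in diapaused ICM, and Gstm5 is spread from 0.155 to 15.1 in diapaused ICM.

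In the thioredoxin system the reductase gene Txnrd1 was called, while the reductase gene Txnrd3 and the carriers did not pass the test. Txnrd1, for the cytosolic thioredoxin reductase, was at 12.7, 14.7 and 23.8 in diapaused ICM, 36.8 and 32.4 in epiblast, and 12.8, 7.90 and 14.02 in ICM. Both epiblast libraries lay above all others. It was higher in epiblast than in ICM (log2 fold change 1.53 ± 0.33, adjusted p = 0.0093), a call lost without epiblast replicate 1 (0.081) or 2 (0.0502). It was lower in diapaused ICM than in epiblast (-1.02 ± 0.33, adjusted p = 0.04), lost without diapaused replicate 1 or 2, ICM replicate 1 or either epiblast library (0.057 to 0.19), and with no filter, rescaling or only the 2 groups in the fit (0.0516 to 0.108). Txn1, the cytosolic thioredoxin gene, had 35.5, 34.9 and 41.6 in diapaused ICM, 67.8 and 52.2 in epiblast, and 66.4, 50.2 and 45.7 in ICM. All diapaused libraries lay below the others, with log2 fold change -0.51 ± 0.23, adjusted p = 0.19 against ICM and -0.66 ± 0.25, adjusted p = 0.072 against epiblast. Txn2, for the mitochondrial thioredoxin, was at 9.16, 7.07 and 11.6 in diapaused ICM, 10.99 and 10.4 in epiblast, and 14.8, 8.34 and 4.79 in ICM. Txnip, for the protein that binds and inhibits thioredoxin, was at 6.42, 3.96 and 11.1 in diapaused ICM, 2.91 and 3.01 in epiblast, and 6.78, 9.17 and 1.78 in ICM. The groups overlapped for Txn2, and for Txnip both epiblast libraries lay below all diapaused libraries and within the range of ICM. Txnrd3, picked after its values were seen, was at 2.74, 0.663 and 0.934 in diapaused ICM, 0.692 and 1.15 in epiblast, and 0.383, 0.224 and 0.119 in ICM. All its diapaused and epiblast libraries lay above ICM without a call (0.89 ± 0.34, adjusted p = 0.13 in diapaused ICM against ICM). The tested genes of this system numbered 5, of which limma called 0 in diapaused ICM against ICM and 1 had an unadjusted p below 0.05.

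Peroxiredoxins reduce peroxides, most of them with electrons from thioredoxin. Of 7 tested, diapaused ICM against ICM had 0 higher and 1 lower, epiblast against ICM 3 higher and 0 lower, and diapaused ICM against epiblast 0 higher and 4 lower. Prdx2 was at 73.3, 59.02 and 56.6 in diapaused ICM, 206 and 141 in epiblast, and 76.2, 85.1 and 80.7 in ICM. Both epiblast libraries were above the rest (log2 fold change 1.07 ± 0.25, adjusted p = 0.013 against ICM, and 0.11 without epiblast replicate 1), and all diapaused libraries were below ICM without a call (-0.36 ± 0.22, adjusted p = 0.35). In diapaused ICM against epiblast Prdx2 was lower (-1.43 ± 0.25, adjusted p = 0.0032). Prdx6, for an enzyme that is recycled through glutathione and not through thioredoxin, was at 7.46, 5.71 and 8.59 in diapaused ICM, 36.1 and 29.2 in epiblast, and 18.6, 20.9 and 17.5 in ICM. The diapaused libraries lay below and the epiblast libraries above all ICM libraries. Prdx6 was lower in diapaused ICM than in ICM (log2 fold change -1.29 ± 0.22, adjusted p = 0.0056) and lower than in epiblast (-2.03 ± 0.24, adjusted p = 0.00047), calls that held in every fit run. Its call as higher in epiblast than in ICM (0.74 ± 0.24, adjusted p = 0.0467) was lost with a pseudocount of 0.1, no filter, no trend, rescaling or only the 2 groups in the fit (0.0502 to 0.17), and without any ICM library, either epiblast library or diapaused replicate 1 (0.057 to 0.23). Prdx1 had 46.9, 24.3 and 65.2 in diapaused ICM, 125 and 111 in epiblast, and 112, 54.6 and 123 in ICM. It was lower in diapaused ICM than in epiblast (log2 fold change -1.46 ± 0.46, adjusted p = 0.036), lost without diapaused replicate 1 or 2 or either epiblast library (0.058 to 0.17) and with no filter (0.132). Against ICM, diapaused ICM gave -1.09 ± 0.41, adjusted p = 0.12, and 0.046 without ICM replicate 2. Of the stretches of Prdx1, 13% occur in other genes, among them Gm7204 and Gm21399. Gm7204 was at 5.43 to 9.59 in diapaused ICM, 30.65 to 63.6 in epiblast and 14.6 to 26.6 in ICM. Gm21399 was at 5.33 to 7.30 in diapaused ICM, 33.8 to 45.3 in epiblast and 11.02 to 22.7 in ICM. By group, both were lowest in diapaused ICM and highest in epiblast, as was the mean of Prdx1. Prdx3, the mitochondrial peroxiredoxin gene, was low, at 1.71, 0.958 and 1.18 in diapaused ICM, 4.80 and 3.44 in epiblast, and 1.09, 1.78 and 1.73 in ICM. It was higher in epiblast than in ICM (log2 fold change 1.01 ± 0.26, adjusted p = 0.02; 0.063 without ICM replicate 1, 0.14 without epiblast replicate 1, 0.0559 with no filter), and lower in diapaused ICM than in epiblast (-1.17 ± 0.26, adjusted p = 0.0098; 0.085 without epiblast replicate 1). Prdx4, of the endoplasmic reticulum, was at 0.802, 1.21 and 3.46 in diapaused ICM, 4.32 and 4.68 in epiblast, and 0.213, 0.618 and 3.95 in ICM. With all libraries it was not called, and without ICM replicate 3, the high library of its group, it was called higher in epiblast than in ICM (adjusted p = 0.016). Prdx5 averaged 13.2 ± 5.87 in diapaused ICM, 11.8 ± 3.84 in epiblast and 26.8 ± 7.55 in ICM (SD, n = 3, 2 and 3), and in epiblast against ICM gave -1.12 ± 0.37, adjusted p = 0.05, at the threshold and not called. Srxn1, for the enzyme that repairs overoxidised peroxiredoxins, did not exceed 0.950.

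Sod1, for the cytosolic copper-zinc superoxide dismutase, was the most abundant of the defence genes and was called in no comparison. It was at 1060.5, 823 and 963 in diapaused ICM, 1136 and 1064 in epiblast, and 1075, 795 and 1048 in ICM, which was 37.55% to 49.8% of the summed level of the 79 genes per library. Diapaused ICM against ICM gave log2 fold change -0.03 ± 0.21, adjusted p = 0.95, and epiblast against ICM 0.19 ± 0.23, adjusted p = 0.57. Gm8566, which shares 4.8% of the stretches of Sod1, was at 352 to 452 in diapaused ICM, 472 to 487 in epiblast and 346 to 471 in ICM. Sod2, for the mitochondrial manganese enzyme, was at 16.8, 19.1 and 19.8 in diapaused ICM, 8.73 and 8.76 in epiblast, and 20.5, 22.1 and 30.1 in ICM. It was lower in epiblast than in ICM (log2 fold change -1.35 ± 0.24, adjusted p = 0.0037), and all diapaused libraries lay above both epiblast libraries (1.00 ± 0.24, adjusted p = 0.012; 0.069 without epiblast replicate 1 and 0.062 without replicate 2). Of the stretches of Sod2, 24.8% occur in other genes, among them AC166110.4 (20.7%) and Rps6ka2 (18.7%), so some of its reads may belong elsewhere. Rps6ka2 was at 0.653 to 2.99 in diapaused ICM, 4.51 to 5.38 in epiblast and 0.159 to 0.247 in ICM. Cat, for the peroxisomal catalase, went the other way from Sod2 at low levels, with 0.980, 3.999 and 4.06 in diapaused ICM, 12.3 and 7.33 in epiblast, and 2.43, 1.95 and 2.10 in ICM. It was higher in epiblast than in ICM (log2 fold change 1.74 ± 0.41, adjusted p = 0.014, and 0.13 without epiblast replicate 1) and lower in diapaused ICM than in epiblast (-1.51 ± 0.41, adjusted p = 0.022), the second of which was lost without epiblast replicate 1 (0.17) or 2 (0.054) and with only the 2 groups in the fit (0.061). With no filter both calls were lost (0.0709 and 0.0949). Sod3, the extracellular form, did not exceed 0.470.

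**Figure D4:**
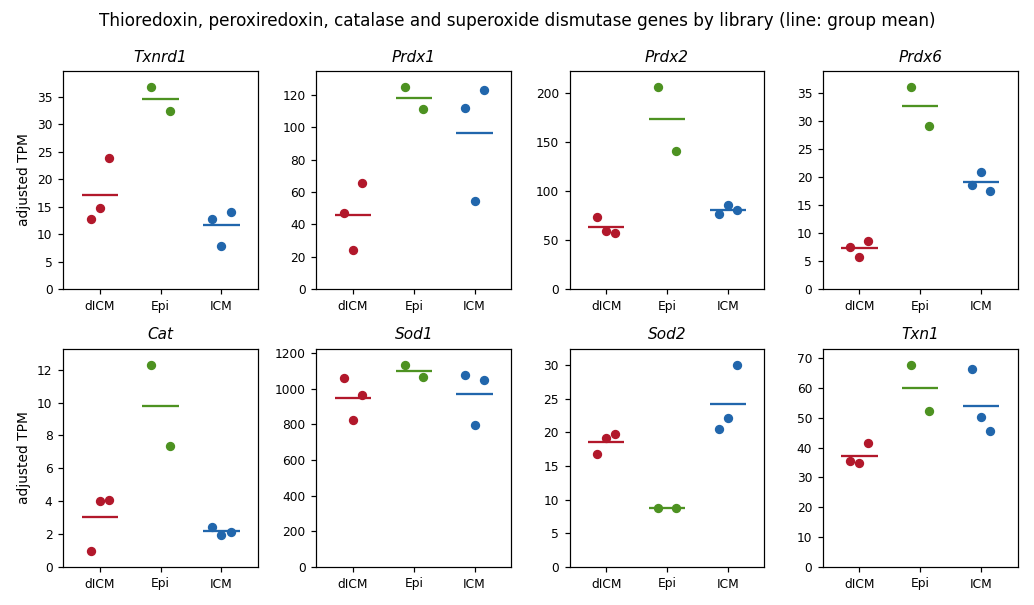
Adjusted TPM (axis from 0) of 8 thioredoxin, peroxiredoxin, catalase and superoxide dismutase genes in each library of diapaused ICM (dICM), epiblast (Epi) and ICM; points are libraries and lines are group means. Txnrd1, Prdx2, Prdx6 and Cat are highest in both epiblast libraries, Sod2 is lowest there at 8.73 to 8.76, and Sod1 overlaps between diapaused ICM and ICM.

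The regulator gene Nfe2l2 and the stress enzyme genes Nqo1, Hmox1 and Hmox2 were called in no comparison, and the regulator gene Keap1 was not tested. Nfe2l2, which encodes Nrf2, was at 4.49, 6.19 and 9.97 in diapaused ICM, 9.21 and 6.25 in epiblast, and 6.98, 6.18 and 5.20 in ICM, with the groups overlapping. Diapaused ICM against ICM gave log2 fold change 0.09 ± 0.29, adjusted p = 0.88, and epiblast against ICM 0.28 ± 0.32, adjusted p = 0.54. Hmox1, for the inducible heme oxygenase, was at 3.07, 1.29 and 5.77 in diapaused ICM, 5.40 and 3.89 in epiblast, and 2.85, 3.48 and 1.45 in ICM. Nqo1, for a quinone reductase used as a readout of Nrf2, was at 0.806, 0.536 and 1.77 in diapaused ICM, 0.807 and 0.988 in epiblast, and 0.402, 1.13 and 0.731 in ICM. Keap1 was at 0.886, 0.530 and 0.966 in diapaused ICM, 0.526 and 0.478 in epiblast, and 0.922, 0.758 and 1.16 in ICM, below the filter. Diapaused ICM overlapped with ICM in each of these, epiblast lay above ICM for Hmox1, and epiblast lay below both other groups for Keap1. Of the 4 tested genes of this role, limma called 0 in diapaused ICM against ICM, with 1 at an unadjusted p below 0.05, and 0 in epiblast against ICM, with 0 at an unadjusted p below 0.05. Hmox2, for the constitutive heme oxygenase, was at 8.05 to 16.96 in diapaused ICM and 3.61 to 7.73 in ICM, without overlap and without a call (1.06 ± 0.32, adjusted p = 0.063). In the 250 bases before RefSeq gene starts (GRCm38.p6), the core of the antioxidant response element, TGACNNNGC, was found on either strand in 13 of 92 windows of 68 defence genes, 14.1%, against 10.2% of all 32817 windows. The match is a description of letters, not of a site, and may overlap TGAGTCA, as it does in Prdx1 and Mt2. The genes with a match were Gclm, Gsta3, Gstm5, Gstm7, Mgst1, Mt2, Nfe2l2, Prdx1, Sod1, Txndc2, Txndc5, Txndc11 and Txnrd1.

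The metallothionein genes lie next to each other and differed in their balance between groups. Mt2 was at 32.2, 21.01 and 53.6 in diapaused ICM, 38.9 and 40.4 in epiblast, and 8.65, 6.69 and 13.1 in ICM. All diapaused and epiblast libraries lay above all ICM libraries, by 3.75-fold and 4.18-fold as ratios of means. Mt2 gave log2 fold change 1.75 ± 0.35, adjusted p = 0.013 in diapaused ICM against ICM, and 0.075 with no filter on low values. In epiblast against ICM it gave 2.00 ± 0.40, adjusted p = 0.0064, lost without epiblast replicate 1 (0.057) or 2 (0.051). Mt1 was at 42.4, 24.6 and 54.2 in diapaused ICM, 20.2 and 19.6 in epiblast, and 17.9, 21.7 and 18.01 in ICM. Every diapaused library was above the rest, but the call was missed (log2 fold change 0.97 ± 0.29, adjusted p = 0.058 against ICM and 0.91 ± 0.32, adjusted p = 0.055 against epiblast) and was gained without diapaused replicate 2 (0.015 and 0.012), against ICM with quantile normalization (0.0444) and against epiblast with rescaling (0.0429). The ratio of Mt2 to Mt1 levels was 0.760, 0.853 and 0.989 in diapaused ICM, 1.92 and 2.06 in epiblast, and 0.484, 0.309 and 0.728 in ICM. The groups did not overlap in this ratio, which was not tested, and Mt2 exceeded Mt1 in epiblast only. The transcripts of the pair share no stretch of 36 bases with each other or with another gene, so their reads can be told apart at that length. The core of the metal response element, TGCNCNC, was found on either strand in 38 of the 92 promoter windows, 41.3%, against 44.4% of all windows, and those of Mt1 and Mt2 were among them. Mtf1, for the zinc-sensing factor that induces both, did not follow them. It was at 11.5, 7.68 and 6.31 in diapaused ICM, 1.41 and 2.97 in epiblast, and 10.7, 13.4 and 9.60 in ICM. Epiblast was below all blastocyst libraries (log2 fold change -1.97 ± 0.32, adjusted p = 0.0024 against ICM), diapaused ICM was higher than epiblast (1.58 ± 0.32, adjusted p = 0.0057, and 0.068 without epiblast replicate 1), and diapaused ICM overlapped with ICM.

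**Figure D5:**
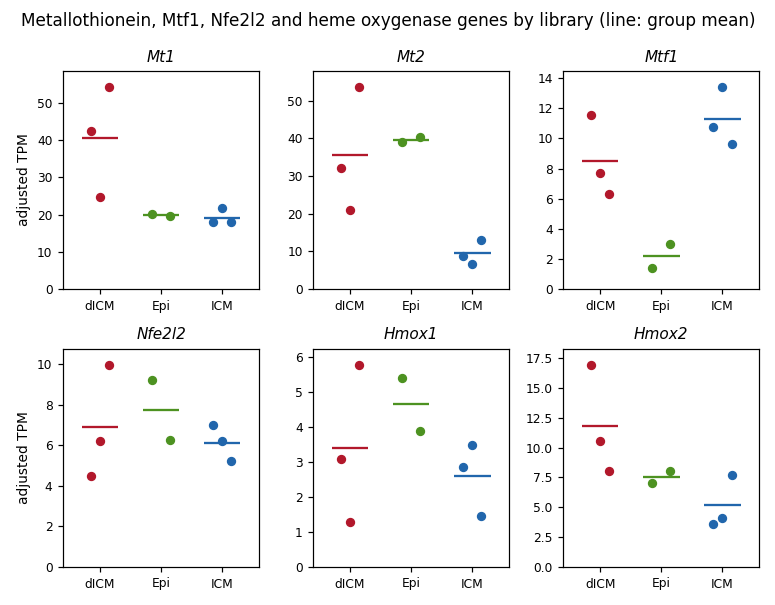
Adjusted TPM (axis from 0) of the metallothionein genes, Mtf1, Nfe2l2 and the heme oxygenase genes in each library of diapaused ICM (dICM), epiblast (Epi) and ICM; points are libraries and lines are group means. Mt2 is lowest in the 3 ICM libraries, Mt1 is highest in the 3 diapaused libraries, and Mtf1 is lowest in epiblast at 1.41 to 2.97.

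Of 12 other genes with thioredoxin-like symbols 10 were tested and 2 were called. Txnl4a, which encodes a spliceosome protein with a thioredoxin fold and not a redox enzyme, was lower in diapaused ICM than in ICM, without overlap (log2 fold change -0.84 ± 0.22, adjusted p = 0.039). It was at 8.83, 8.20 and 9.57 in diapaused ICM, 11.9 and 12.1 in epiblast, and 21.3, 16.9 and 12.8 in ICM. The call was lost without any 1 library other than ICM replicate 3 (0.066 to 0.13), with no filter (0.071) and with only the 2 groups in the fit (0.0681), and 10.7% of its stretches occur in Gm16286, at 9.57 to 14.4 in diapaused ICM and 15.3 to 17.1 in ICM. Txndc9, for a regulator of chaperonin folding, was higher in epiblast than in ICM, without overlap (log2 fold change 0.91 ± 0.27, adjusted p = 0.034). It was at 6.65, 6.18 and 10.3 in diapaused ICM, 14.2 and 12.6 in epiblast, and 7.19, 5.27 and 7.65 in ICM. The call was lost without ICM replicate 1 or 2 or either epiblast library (0.065 to 0.17), with no filter (0.0713) and with rescaling (0.0766). Txndc9 was called lower in diapaused ICM than in epiblast without diapaused replicate 3 (0.029) and with quantile normalization (0.017), and gave 0.0597 with all libraries. The most abundant was Txndc17, at 125, 164 and 168 in diapaused ICM, 117 and 122 in epiblast, and 115, 45.96 and 156 in ICM. ICM replicate 2 was the low library there and it was not called.

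Genes that feed or share these pathways, outside the symbol rule, also had calls in both directions. Among all genes tested, 13.3% were called in diapaused ICM against ICM (7.52% higher, 5.81% lower). In epiblast against ICM 30.1% were called (16.7% higher, 13.3% lower). The counts of the short lists here and in the next paragraph are to be read beside these shares, and no list was tested as a set. Of 9 tested genes listed under cystine import and cysteine supply, 1 rose and 3 fell in diapaused ICM against ICM, and 1 rose and 2 fell in epiblast against ICM. The gene that rose in diapaused ICM was Cdo1, whose enzyme breaks cysteine down (log2 fold change 2.01 ± 0.35, adjusted p = 0.0069). Those that fell there were Slc1a1, Bhmt and Ahcy. Slc1a1, for a glutamate and cysteine transporter, was at 0.690 ± 0.101 in diapaused ICM, 0.119 ± 0.00844 in epiblast and 16.4 ± 4.93 in ICM (SD, n = 3, 2 and 3), and Bhmt, a methionine synthesis enzyme, at 0.152 ± 0.177 in diapaused ICM, 0.133 ± 0.146 in epiblast and 13.8 ± 7.82 in ICM. Of 8 genes of glutathione breakdown and export, 2 rose and 2 fell in each of those comparisons. Ggt1, which cleaves extracellular glutathione, was at 5.14 ± 4.67 in diapaused ICM, 0.291 ± 0.206 in epiblast and 59.7 ± 5.18 in ICM. Oplah, which opens the 5-oxoproline that this cycle yields, was at 36.8 ± 8.30 in diapaused ICM, 1.85 ± 0.0508 in epiblast and 4.92 ± 2.33 in ICM. Ggct, which makes 5-oxoproline, was at 5.35 ± 1.42 in diapaused ICM, 36.3 ± 6.44 in epiblast and 12.9 ± 1.96 in ICM. Oplah was higher in diapaused ICM than in ICM (log2 fold change 2.75 ± 0.33, adjusted p = 0.0011), where Ggt1 (-3.75 ± 0.63, adjusted p = 0.0056) and Ggct (-1.14 ± 0.24, adjusted p = 0.015) were lower. Of 13 NADPH supply genes, 3 rose and 2 fell in diapaused ICM, and 5 rose and 3 fell in epiblast, against ICM. Pgd, of the pentose phosphate pathway, was at 29.98 ± 1.95 in diapaused ICM, 21.8 ± 1.47 in epiblast and 86.02 ± 5.86 in ICM, and Idh1 at 16.2 ± 4.80 in diapaused ICM, 8.30 ± 1.66 in epiblast and 45.2 ± 11.5 in ICM. Me2 was at 6.76 ± 0.997 in diapaused ICM, 16.9 ± 1.34 in epiblast and 2.53 ± 0.634 in ICM. It is counted among the genes that rose, but its mitochondrial malic enzyme works mainly with NAD and not NADP. Me1, for the cytosolic malic enzyme that yields NADPH, was at 8.68 ± 1.02 in diapaused ICM, 2.29 ± 0.533 in epiblast and 7.29 ± 1.69 in ICM.

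Of 12 genes that partner or compete with Keap1 and Nrf2, 2 rose and 1 fell in diapaused ICM against ICM, and 1 rose and 4 fell in epiblast against ICM. The small Maf genes Maff and Mafk, whose products pair with Nrf2 or Bach1, were those that rose in diapaused ICM. Maff was at 17.4 ± 7.19 in diapaused ICM, 2.29 ± 0.0964 in epiblast and 2.44 ± 1.16 in ICM, and Mafk at 7.77 ± 3.08 in diapaused ICM, 0.647 ± 0.0349 in epiblast and 1.82 ± 0.875 in ICM. Bach1, which encodes a repressor at Nrf2 sites, was at 16.6 ± 2.08 in diapaused ICM, 2.66 ± 1.000 in epiblast and 21.7 ± 9.72 in ICM. Of 13 other Nrf2 target and quinone or aldehyde enzyme genes, 1 rose and 0 fell in diapaused ICM, and 3 rose and 3 fell in epiblast. The one that rose was Ftl1, for ferritin light chain, at 91.05 ± 10.2 in diapaused ICM, 40.4 ± 4.29 in epiblast and 44.8 ± 12.5 in ICM. Akr1b8 and Akr1b3, paralogous aldose reductase genes, were divided in epiblast, Akr1b8 at 1.01 ± 0.113 against 15.3 ± 0.524 in ICM and Akr1b3 at 42.6 ± 0.554 against 14.6 ± 2.09. Of 8 genes of selenocysteine synthesis, 1 rose (Sepsecs) and 1 fell (Sephs1) in diapaused ICM, and limma called 0 in epiblast against ICM, with 1 at an unadjusted p below 0.05. Of 8 other selenoprotein genes, 0 rose and 2 fell (Selt and Ept1) in diapaused ICM, and 1 rose and 3 fell in epiblast. Of 8 glyoxalase and methionine sulfoxide repair genes, 1 rose and 0 fell in diapaused ICM, and 2 rose and 1 fell in epiblast. Of 9 zinc transport genes, 1 rose (Slc30a7) and 0 fell in diapaused ICM, and 0 rose and 1 fell (Slc30a4) in epiblast. Of 12 genes of the disulphide relay of the endoplasmic reticulum, limma called 0 in diapaused ICM against ICM, with 2 at an unadjusted p below 0.05, and 3 rose (Pdia3, Ero1l and Tmx3) in epiblast. The list medians against ICM lay between -0.24 and 0.29 in diapaused ICM and between -0.88 and 0.50 in epiblast, beside 0.0044 and 0.14 for all genes.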

How the data were processed

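The authors' table holds 1 value per gene and library, deposited under columns headed adjusted TPM. These columns added up to 720674 to 1179026 per library, so they were taken as a signal, made by the authors in a way the file headers do not describe. The submitters' processing notes list Bowtie 0.12.5, DESeq and mm9 and give no role for any of them, and strand use is not stated. Without counts the depth per library is unknown. The labels call the libraries biological replicates, each a pool of about 50 embryos, and p-values measure the spread between these pools.

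A gene entered the tests if 2 or more libraries had a value of 1 or more, which left 17698 of 38924. A mean per group was fitted to log2(value + 1) over all 8 libraries with limma 3.58.1 (R 4.3.3, trended prior, 5 residual degrees of freedom). The 3 contrasts were two-sided, p-values were adjusted by Benjamini-Hochberg across these 17698 genes, and a gene said to be called, higher, lower, risen or fallen had an adjusted p below 0.05. On simulated data (200 of 17698 genes changed, 5 runs) the contrast of diapaused ICM against ICM recovered 11.2% of log2 changes of 1 and 69.2% of log2 changes of 2, and 5.09% of calls were false. The changed genes were drawn from those not at low levels, and the noise was normally distributed. Far fewer genes were changed than the 2360 called in the data, so these shares need not hold for the calls given here. Named with values were members called in any comparison with a group mean of at least 10, and a fixed set whatever their result; any other member given with values, Glrx2, Glrx3, Hmox2, Prdx5 and Txndc17 included, was picked after its values were seen. From each further list at most 4 called genes were named. Members and lists were chosen with earlier results of these data known. Alternatives were a pseudocount of 0.1, no filter, quantile normalization, rescaling to a common sum over genes other than the 200 most abundant, only the groups compared, a replicate block, no trend, and each library left out. Shared 36-base stretches were counted in GENCODE M21 transcripts, and promoter windows came from RefSeq, where 78 of the 79 members matched protein-coding genes and 68 had a window.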

Additional observations from a re-analysis of the deposited data

How the results depend on the processing

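No fold change of the 41 tested genes named by rule or for a call changed sign where it was called, under any of 7 alternative settings or 8 fits that each left out 1 library. Of the 55 calls among them, 26 were kept in all of these fits, while 136 single calls were lost and 27 gained over the fits. With no filter on low values, all genes called in diapaused ICM against ICM numbered 1278 in place of 2360, and defence genes higher in epiblast than in ICM 7 in place of 14; more genes are then adjusted over. Leaving out 1 library gave 1402 to 2141 genes called in diapaused ICM against ICM, 2008 to 5205 in epiblast against ICM (5324 with all libraries), and 2698 to 6315 in diapaused ICM against epiblast (6113 with all libraries). For the defence genes it gave 4 to 6 higher and 5 to 8 lower in diapaused ICM against ICM, 2 to 14 higher and 8 to 14 lower in epiblast against ICM, and 4 to 11 higher and 5 to 12 lower in diapaused ICM against epiblast. A fit that leaves 1 epiblast library takes its spread from the other groups. Whether the replicate numbers pair the libraries could not be settled with so few pairs, and the main fit had no replicate block. Deviations of same-numbered diapaused ICM and ICM libraries correlated at 0.0175, 0.103 and 0.131, and those of differently numbered ones at -0.148 to 0.033. ICM replicates 2 and 3 correlated best with the diapaused library of their own number, and ICM replicate 1 with diapaused replicate 2. With the replicate block, defence genes called were 5 higher and 7 lower in diapaused ICM against ICM, 12 and 10 in epiblast against ICM, and 7 and 12 in diapaused ICM against epiblast, and all genes called numbered 2004, 4475 and 5314. Among the named genes that block ended the call of Txnl4a in diapaused ICM against ICM (adjusted p = 0.0629), of Gclc, Gsta1, Gsta4, Gstt3 and Prdx6 in epiblast against ICM (0.0529 to 0.0975), and of Gpx1 and Gstp1 in diapaused ICM against epiblast (0.082 and 0.0719). It added calls of Mgst3 and Prdx1 in diapaused ICM against ICM (0.0385 and 0.0402), of Prdx4 in epiblast against ICM (0.00524), and of Gstk1, Prdx4 and Txndc9 in diapaused ICM against epiblast (0.017, 0.00784 and 0.0283). The cause of these shifts was not tested. Depth is unknown, so the counting error of genes near the filter could not be given.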
